A study of Rattus norvegicus with 4 samples.

Results

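The circular RNAs (circRNAs) described here came from 5 rat genes of messenger RNA decay: Upf2, Upf3b, Cnot6l, Cnot2 and Pan3. They were all circRNAs that the deposited files assign to a host gene of 1 of these symbols, 28 of 4942 in all. Pan3 gave 11, Upf2 and Cnot6l gave 6 each, Cnot2 gave 3 and Upf3b gave 2. Total RNA was sequenced from sciatic nerves taken 24 h after surgery from Sprague-Dawley rats, 6 weeks after birth, as 2 libraries of crushed nerve and 2 of sham-operated nerve. Crush was applied over 3 mm, 2 times for 15 s each with a 3 s pause, and that piece was collected together with 1 mm on either side. Sham nerves were exposed and left uncrushed. The labels give no transgene or drug. They also do not state that the 2 libraries of a group are from different rats, so the p-values below cover the spread between libraries only, and that spread may be technical.

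A circRNA is closed by a back-splice, which joins a downstream splice donor to an upstream splice acceptor, so the molecule has neither free ends nor a poly(A) tail. Messenger RNA decay usually begins at the poly(A) tail, which the PAN2-PAN3 complex and the CCR4-NOT complex shorten. Nonsense-mediated decay instead removes transcripts whose reading frame stops early, through the UPF proteins. The reads counted here cross back-splices: they measure circles made from these genes, not the messenger RNA or the protein.

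Over all circRNAs, junction reads summed to 8250 and 9027 in the crush libraries (replicates 1 and 2) and to 9018 and 8726 in the sham libraries. The 28 circRNAs took 190 and 177 of these in crushed nerve against 89 and 91 in sham nerve, or 2.30% and 1.96% against 0.987% and 1.04% of the library. No library listed a count of 1, so a listed 0 stands for a circRNA that was not reported there and may hide a read. Levels are given as reads and as SRPBM, the deposited signal, which is the read count times 1 constant per library. Marker hosts of other cell types were summed in each library, with no test. Of 20 leukocyte marker genes, 12 had circRNAs, with 85 and 66 reads summed in crushed nerve against 4 and 2 in sham nerve, while S100a8, S100a9, Itgb2, Csf1r and Cd68 had none in any library. Of 16 skeletal muscle markers, 5 had circRNAs, with 76 and 84 reads against 207 and 235, nearly all from Mlip, and Ttn, Ckm and Acta1 had none. Schwann cell markers gave circRNAs for 4 of 16 genes, with 6 and 12 reads against 11 and 39. In reads the groups overlapped, but in SRPBM both crush libraries (0.435 and 0.718) lay below both sham libraries (0.801 and 3.07). Nearly all of these reads were from Utrn (40 in all) and Dst (22). The myelin genes Mbp and Pmp22 had 3 reads each, in sham replicate 2 only, and the defining genes Prx and Sox10 had none. Fibroblast and perineurial markers gave them for 3 of 14 genes, with 15 and 34 reads against 3 and 0, of which Vcan had 15 and 27 against 0 and 0, and all 10 axon markers were at 0. The part of these cell types in the changes below was not tested, and in whole nerve fewer cells of a type and fewer circles per cell cannot be told apart.

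Among the 28 circRNAs, 23 were classed as exonic and 5 as intronic. Positions are given as deposited, in the rat build Rnor_6.0. Their genomic spans, introns included, ran from 194 to 76712 bases with a median of 15793.5, against a median of 8508 bases over the 4179 circRNAs of other single hosts. Most of the 28 were rare. Of them, 13 were called in 1 library (46.4%, against 72.6% of the others), 4 in 2 libraries, 5 in 3 and 6 in all 4 (21.4%, against 6.03%). Sharing of ends was common: 25 of the 28 (89.3%) had an end in common with another circRNA of the same host. The share was 64.0% over the 2732 circRNAs of other hosts with more than 1 circRNA. That comparison was not matched for the number of circRNAs per host. Of 2327 hosts 880 had at least 2 circRNAs, but only 83 had at least 6, Upf2, Cnot6l and Pan3 among them. These shares are descriptions, and no test was run on them. No circRNA of another host and no intergenic circRNA overlapped the 5 loci.

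Upf2 had the smallest adjusted p among the 5 host sums. Upf2 (ENSRNOG00000023593, chromosome 17, minus strand) encodes the UPF protein that bridges UPF1 and UPF3B in nonsense-mediated decay. Its circRNAs had 40 and 46 reads in crushed nerve against 8 and 2 in sham nerve, or 2.83 ± 0.11 against 0.370 ± 0.301 SRPBM (SD, n = 2). Both crush libraries lay far above both sham libraries. The sum met the filter of at least 5 reads in at least 2 libraries only with its crush libraries, where it was high. Its tests are therefore given as descriptions. The log2 change of this sum was 3.30 ± 0.63 (SE), with a 95% interval of 1.78 to 4.81, and it missed the threshold of 0.05 narrowly (adjusted p = 0.0522, edgeR, rank 13 of 434 hosts). Under the same test 8 of 434 host sums were called higher, 1.84% of those tested, and 2 were called lower (0.461%). None of the 5 decay hosts was called by edgeR. Upf2 and Cnot6l had an unadjusted p under 0.05, as did 111 of the 434 hosts tested. DESeq2 called Upf2 alone of the 5 (adjusted p = 0.00139), and over all 434 host sums it called 26 higher and 6 lower. The size of the Upf2 difference turned on the sham libraries, with a log2 change of 4.33 without sham replicate 1 and 2.59 without sham replicate 2.

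The Upf2 reads sat on 6 exonic circRNAs, and 5 of the 6 began at the same upstream end, position 76265943 (on the minus strand the larger coordinate is upstream). That end took 96.9% of all Upf2 reads. The leading circRNA ran from 76245627 to 76265943, a span of 20316 bases, and had 26 and 29 reads in crushed nerve against 0 and 0 in sham nerve. It was thus a leading circle in both crush libraries and was not reported in either sham library. In the fit it was higher in crushed nerve (adjusted p = 0.0454, edgeR, rank 2 of 428 circRNAs), by at least 7.96-fold in SRPBM, taking 3 reads in each sham library as the floor. The bound assumes that few reads stand behind a listed 0. This circRNA met the filter of at least 5 reads in at least 2 libraries only through the crush libraries, where it was high, so its call is given as a description. The call held in 6 of 9 alternatives; it was lost, for example, when the filter was lowered to 2 reads in 2 libraries (adjusted p = 0.135), and without either crush library it could not be tested. Of the 28 circRNAs, 8 met the filter, and none of the others was called. Over all circRNAs 32 of 428 were called higher (7.48%) and 19 lower (4.44%).

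The second Upf2 circRNA, 76260636 to 76265943, had a span of 5307 bases and 11 and 12 reads in crushed nerve against 5 and 0 in sham nerve. Its crush libraries agreed closely and lay above both sham libraries, but its log2 change of 2.38 ± 1.06 did not pass (adjusted p = 0.222, edgeR). Without sham replicate 1 the log2 change was 6.56, but the sham library left listed 0 reads, so that size is not a measured one. Without sham replicate 2 it was 1.34. This circRNA met the read filter only with its crush libraries, where it was high, so its test is given as a description. The other 4 circRNAs were near the detection limit. That of 76228430 to 76265943 had 3 and 0 reads in crushed nerve and none in sham nerve, and that of 76235192 to 76265943 had none in crushed nerve against 3 and 0 in sham nerve. That of 76250434 to 76265943 had 0 and 2 reads in crushed nerve against 0 and 2 in sham nerve. The shortest of all 28, 76260636 to 76260830 with a span of 194 bases, had 0 and 3 reads in crushed nerve and none in sham nerve. It lay within the second circRNA and shared its downstream end.

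The leading circRNA of a host was that with the most reads over the 4 libraries. For Upf2 all of its reads were from crushed nerve, so the same reads chose it and its shares are descriptions. It took 65.0% (95% exact Clopper-Pearson interval 48.3% to 79.4%) and 63.0% (47.5% to 76.8%) of Upf2 reads in crushed nerve. In sham nerve it took 0 of 8 reads (interval up to 36.9%) and 0 of 2 (up to 84.2%). Over libraries the exact two-sided permutation p was 0.333, the smallest that 2 against 2 allows. The remaining circRNAs of Upf2 summed to 14 and 17 reads in crushed nerve against 8 and 2 in sham nerve. Their log2 change was 1.87 ± 0.69 (adjusted p = 0.152, edgeR), in a fit added after seeing the data that leaves out the leading circRNA of each of the 5 hosts.

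**Figure D1:**
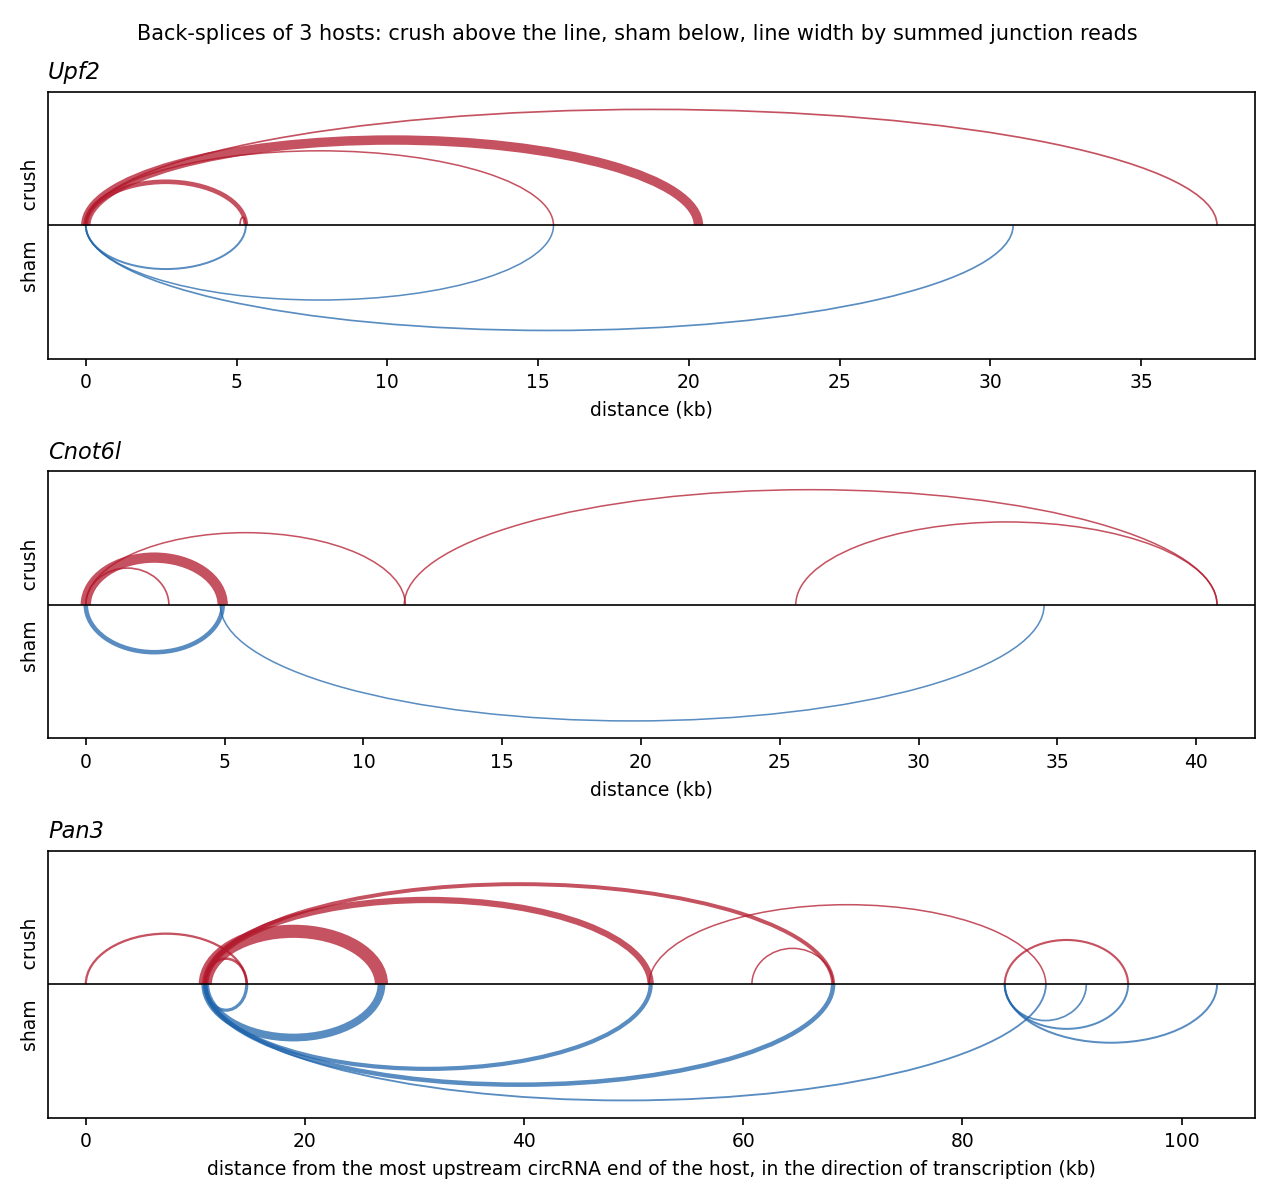
Back-splices of Upf2, Cnot6l and Pan3, plotted as arcs between the upstream and downstream end of each circRNA, against distance in kb from the most upstream circRNA end of the host. Arcs above the line are crush and arcs below are sham, and line width grows with the reads summed over the 2 libraries of the group; the heaviest Upf2 arc, 55 reads, has no counterpart below the line, and the leading arcs of Cnot6l and Pan3 are heavier above it.

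Summed by end in place of by circle, reads at 37 ends of the 5 hosts could be followed, and 14 ends had enough reads to be tested among 887 in the whole table. Of all 887 ends 37 were called higher (4.17%) and 17 lower (1.92%). The 1 called end of the 5 hosts was the downstream end of the leading Upf2 circRNA, 76245627 (adjusted p = 0.0485, edgeR), which carries the same reads as that circRNA and adds no evidence. It too met the filter only through the crush libraries, and its call was lost with the filter at 2 reads (adjusted p = 0.157). The upstream end at 76265943 had 40 and 43 reads in crushed nerve against 8 and 2 in sham nerve, and its log2 change was 3.24 ± 0.66 (adjusted p = 0.0503). The downstream end at 76260636, used by 2 circRNAs, had 11 and 15 reads against 5 and 0 (adjusted p = 0.199). These ends, too, met the filter only with their crush libraries. At Upf2 a common upstream end was thus joined to 5 different downstream ends.

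Upf3b (ENSRNOG00000039994, chromosome X, minus strand) encodes the UPF protein that ties nonsense-mediated decay to the exon junction complex. It gave 2 exonic circRNAs with no end in common. The leading one, 123718252 to 123720910, had 14 and 8 reads in crushed nerve against 12 and 5 in sham nerve, so the groups overlapped. The other, 123725384 to 123730312, had 2 and 0 reads in crushed nerve and none in sham nerve. The host sum was 0.819 ± 0.482 SRPBM in crushed nerve and 0.634 ± 0.340 in sham nerve, with a log2 change of 0.73 ± 0.68 and a 95% interval of -0.90 to 2.36 (adjusted p = 0.548, edgeR). The 2 replicates of each group were farther apart than the group means.

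Cnot6l (ENSRNOG00000002075, chromosome 14, plus strand) encodes a catalytic deadenylase of CCR4-NOT. Its sum was 46 and 24 reads in crushed nerve against 13 and 11 in sham nerve, or 2.39 ± 1.34 against 0.906 ± 0.058 SRPBM. Both crush libraries were above both sham libraries, and replicate 1 stood well above replicate 2. The log2 change was 1.77 ± 0.53, with an interval of 0.49 to 3.05, and did not pass (adjusted p = 0.0860, edgeR). It passed when the filter was raised to 10 reads in 2 libraries (adjusted p = 0.0463, edgeR), a setting in which 44 of 188 host sums passed. With 1 library left out the log2 change lay between 1.27 and 2.37.

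Nearly all Cnot6l reads were on 1 of its 6 circRNAs. The exonic circRNA at 15086543 to 15091475, with a span of 4932 bases, had 39 and 22 reads in crushed nerve against 13 and 9 in sham nerve. The log2 change was 1.69 ± 0.50 (adjusted p = 0.0980, edgeR). It held 88.3% of the host's reads over the 4 libraries, and 84.8% and 91.7% in crushed nerve against 100% and 81.8% in sham nerve, with overlapping intervals. Its upstream end was shared with an exonic circRNA ending at 15089536 (3 and 0 reads in crushed nerve, none in sham nerve) and an intronic one ending at 15098055 (2 and 0 in crushed nerve, none in sham nerve). The 3 others were an intronic circRNA at 15098015 to 15127296 (2 and 0 in crushed nerve, none in sham nerve), an exonic one at 15112120 to 15127296 (0 and 2 in crushed nerve, none in sham nerve) and an exonic one at 15091390 to 15121067 (none in crushed nerve, 0 and 2 in sham nerve). The last had its upstream end 85 bases before the downstream end of the leading circRNA, so the 2 spans overlapped by 85 bases. The 2 intronic circRNAs that met at 15098015 and 15098055 overlapped by 40 bases.

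Cnot2 (ENSRNOG00000004909, chromosome 7, minus strand) encodes a non-catalytic scaffold subunit of CCR4-NOT. Its sum was 9 and 20 reads in crushed nerve against 6 and 7 in sham nerve, or 0.924 ± 0.384 against 0.494 ± 0.080 SRPBM. The crush libraries were both higher, replicate 1 by little. The log2 change was 1.34 ± 0.61, with an interval of -0.14 to 2.81 (adjusted p = 0.230, edgeR). None of its 3 exonic circRNAs had enough reads to be tested alone. Those at 59556898 to 59587314 and 59556898 to 59587384 shared a downstream end and used upstream ends 70 bases apart. The first gave 3 and 5 reads in crushed nerve against 2 and 0 in sham nerve, and the second gave 4 and 12 against 4 and 4. The circRNA at 59566764 to 59587384 gave 2 and 3 reads against 0 and 3.

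Pan3 (ENSRNOG00000000942, chromosome 12, minus strand) encodes the adaptor subunit that binds poly(A)-binding protein and brings in the nuclease PAN2. Only 12 of 2327 hosts, Pan3 included, had at least as many circRNAs, and only 5 had at least as many reads. Its sum was 79 and 79 reads in crushed nerve against 50 and 66 in sham nerve, or 5.23 ± 0.71 against 4.42 ± 1.09 SRPBM, with crush replicate 2 (4.72) below sham replicate 2 (5.19). The log2 change was 0.65 ± 0.32, with an interval of -0.13 to 1.43 (adjusted p = 0.258, edgeR). With library totals from the SRPBM constants in place of TMM it was 0.24, since these totals moved the median of all hosts from 0.11 to -0.30.

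Of the 11 Pan3 circRNAs, 5 began at position 9313769, and this end took 89.1% of the host's reads. The leading one, exonic, 9297691 to 9313769, had 38 and 42 reads in crushed nerve against 20 and 24 in sham nerve, or 2.63 ± 0.17 against 1.67 ± 0.30 SRPBM. Its groups did not overlap, but its log2 change of 1.07 ± 0.39 did not pass (adjusted p = 0.156, edgeR). It took 48.1% and 53.2% of Pan3 reads in crushed nerve against 40.0% and 36.4% in sham nerve, with an exact permutation p of 0.333. The exonic circRNA at 9273125 to 9313769 had 16 and 18 reads against 14 and 6, and its log2 change was 0.99 ± 0.51 (adjusted p = 0.296). The intronic one at 9256476 to 9313769 had 8 and 10 reads against 12 and 10, or 0.589 ± 0.013 against 0.830 ± 0.062 SRPBM. In SRPBM its crush libraries were both lower, and in the fit its log2 change was -0.068 ± 0.43 (adjusted p = 0.950).

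The circRNA with the shortest Pan3 span, 9309987 to 9313769, had 9 and 0 reads in crushed nerve against 2 and 11 in sham nerve. The libraries of each group thus disagreed with each other by more than the groups did (adjusted p = 0.940, edgeR). The last circRNA at 9313769, which reached 9237057 over 76712 bases, had no reads in crushed nerve against 0 and 4 in sham nerve. An intronic circRNA that shared the end 9309987 and reached upstream to 9324674 had 4 and 3 reads in crushed nerve and none in sham nerve. Near the downstream side of the gene, 3 exonic circRNAs shared the end 9240810: that from 9221435 had none in crushed nerve against 2 and 3 in sham nerve, that from 9229552 had 4 and 2 against 0 and 5, and that from 9233368 had none against 0 and 3. The exonic circRNA at 9237057 to 9273272 and the intronic one at 9256476 to 9263886 had 0 and 2 reads in crushed nerve and none in sham nerve. Positions 9273125 and 9273272, 147 bases apart, were the downstream end of an abundant circle and the upstream end of a rare one.

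**Figure D2:**
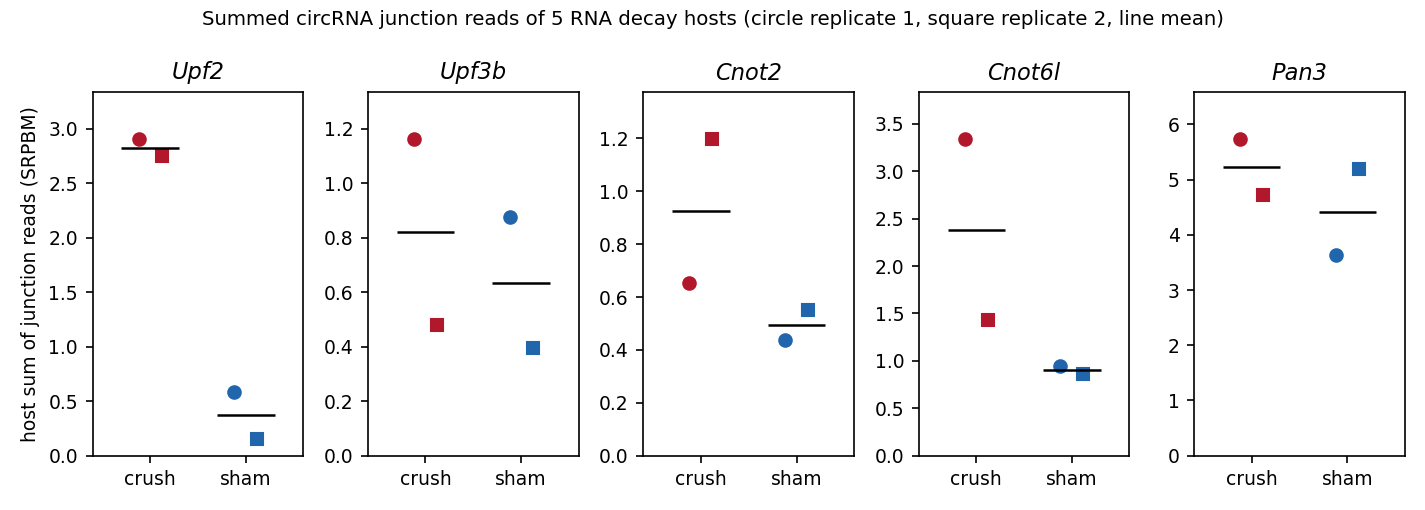
Junction reads summed per host, in SRPBM, with crush on the left and sham on the right of each panel; circles are replicate 1, squares replicate 2 and lines the mean of 2 libraries, and each panel has its own axis from 0. The crush libraries lie above the sham libraries for Upf2, Cnot2 and Cnot6l and overlap them for Upf3b and Pan3.

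All 5 host sums had a fitted log2 change above 0, as did 53.5% of the 434 hosts tested. In SRPBM, both crush libraries lay above both sham libraries for 3 of the 5, against 25.3% of the hosts tested. Among the 8 tested circRNAs the same held for 5, against 24.5% of the 428 tested. These counts are descriptions, because the 5 hosts were chosen with earlier results of these data known. They also include the Upf2 sum and both tested Upf2 circRNAs, which met the read filter only with their crush libraries, where they were high. The 20 circRNAs not tested held at most 12 reads in any library, and the 8 tested held 81.4% of the 547 reads.

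**Figure D3:**
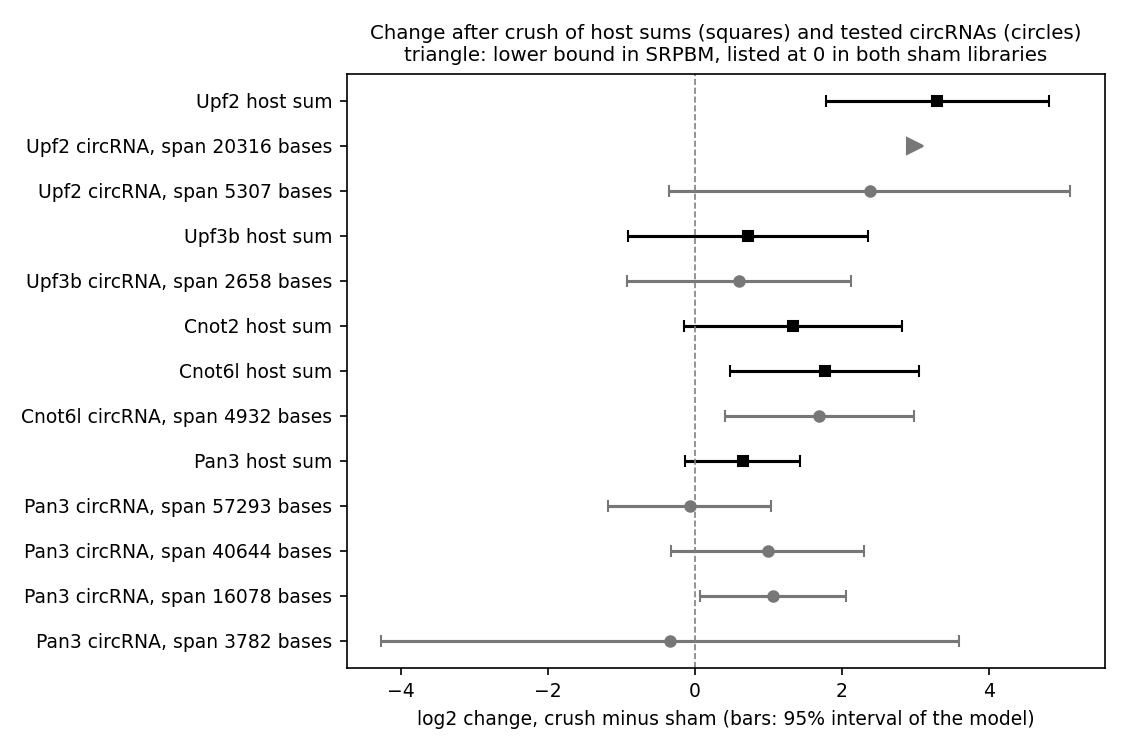
Log2 change, crush minus sham, of the 5 host sums (squares) and the tested circRNAs (circles), with bars for the 95% interval of the edgeR model; the triangle is the lower bound, in SRPBM, of the Upf2 circRNA listed at 0 in both sham libraries. The intervals of the Upf2 and Cnot6l sums lie above 0, and those of Upf3b, Cnot2 and Pan3 include it.

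Together the 5 hosts had 18 and 17 circRNAs listed in crushed nerve against 11 and 14 in sham nerve. Over the whole table the crush libraries also listed more, 1785 and 2022 circRNAs against 1704 and 1711. For Upf2 there were 3 and 4 against 2 and 1, and for Cnot6l 4 and 2 against 1 and 2. For Cnot2 there were 3 and 3 against 2 and 2, for Upf3b 2 and 1 against 1 and 1, and for Pan3 6 and 7 against 5 and 8. The exact permutation p of these numbers ran from 0.333 to 1 over the 5 hosts. Counting only circRNAs with at least 5 reads in the library, the 5 hosts together had 8 and 9 against 6 and 7. Of the 28, 11 were listed only in crushed nerve and 5 only in sham nerve, and most of these had 2 or 3 reads in 1 library. The same count was not made over the whole table, so the 11 and 5 have no background to be read against. Just 2 of the 28 had reads in both crush libraries and in no sham library, the leading Upf2 circRNA and the intronic Pan3 circRNA at 9309987 to 9324674. Over all 4942 circRNAs 4.51% were of that kind. Just 1 had reads in both sham libraries and in no crush library, the Pan3 circRNA at 9221435 to 9240810, against 3.56% of all.

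**Figure D4:**
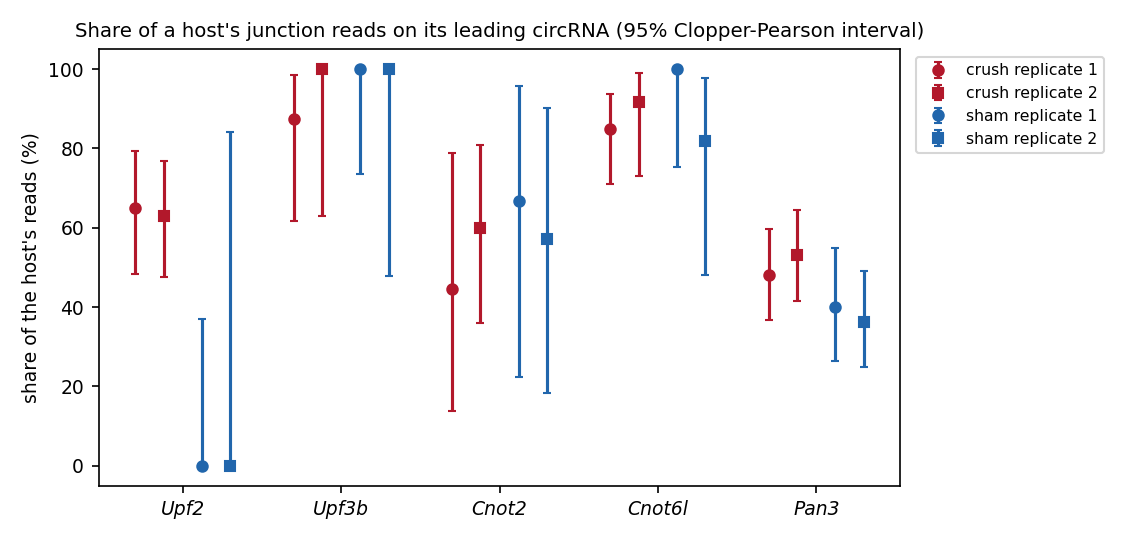
Share of each host's junction reads that its leading circRNA took in each library, in percent, with 95% exact Clopper-Pearson intervals that cover counting error only; crush libraries are drawn left of sham libraries. The Upf2 share is 65.0% and 63.0% in crushed nerve and 0 in sham nerve, with the interval of sham replicate 2 reaching 84.2%, and the intervals of the other 4 hosts overlap between the groups.

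Circles were also counted over a wider list of decay genes. Of 87 genes of nonsense-mediated decay, deadenylation, decapping, the exosome and their adaptors, 31 had circRNAs and 8 had enough reads to be tested, the 5 hosts above and 3 others, of which Samd4a and Ago4 are described here. None passed in either direction by edgeR, and 2 had an unadjusted p under 0.05, as did 111 of the 434 hosts tested. DESeq2 called 1, Upf2, and 32 of all 434 host sums. In the edgeR fit the median log2 change of the 8 was 1.03, against 0.11 over all hosts tested. Without the 5 hosts it was -0.42 over the other 3, of which 1 was fitted higher and 2 lower. These medians are descriptions, because the 5 hosts were chosen with earlier results of these data known. Samd4a, a gene for an RNA-binding protein that recruits deadenylases in the fly, had 9 and 3 reads in crushed nerve against 16 and 28 in sham nerve, with both crush libraries lower (log2 change -1.64 ± 0.70, adjusted p = 0.202, edgeR). Ago4, an Argonaute gene of the microRNA pathway, had 6 and 8 reads in crushed nerve against 0 and 3 in sham nerve. Its log2 change was 2.31 ± 1.23 (adjusted p = 0.284, edgeR). Ago4 met the read filter only through its crush libraries and Samd4a only with its sham libraries, where each was high. Their changes are therefore given as descriptions. The nonsense-mediated decay helicase gene Upf1, the scaffold gene Cnot1 and the nuclease genes Pan2 and Xrn1 had no circRNA listed in any library.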

How the data were processed

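The authors deposited, per the file headers, raw back-splice junction read counts of each circRNA and library, and the same reads as an SRPBM signal. CASAVA 1.8, BWA, edgeR and the build Rnor_6.0 are listed, per the submitters' processing notes, with no role. Which program called the circRNAs is not stated there or in the file headers. Coordinates are as deposited, in Rnor_6.0, with the base convention not stated. RNA came from an RNeasy kit and libraries from a VAHTS total RNA kit, per the labels.

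Counts were tested with edgeR 4.0.16 (R 4.3.3), by quasi-likelihood and TMM, two-sided, with Benjamini-Hochberg adjustment over all features and a threshold of 0.05. Features were circRNAs, sums per host and sums per end with at least 5 reads in at least 2 libraries. Each circRNA counts at its 2 ends, so end sums overlap. DESeq2 1.42.0, other filters, scalings and left-out libraries were alternatives. The tests were run first on simulated counts. The 5 hosts and all lists were chosen with earlier results of these data known. The rule named all circRNAs of the 5 hosts and the 8 decay hosts with the most reads, plus any past the test. Clopper-Pearson intervals and floors cover counting error only, and intervals of log2 changes come from the edgeR model. Some genes of the lists are not reported here by name.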

Additional observations from a re-analysis of the deposited data

How the results depend on the processing

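Whole-table calls moved with the processing. Of circRNAs, 51 passed as reported, 30 with DESeq2, 0 with at least 2 reads in 2 libraries (434 then had an unadjusted p under 0.05), 23 with at least 10, 0 with the replicate block (53 unadjusted) and 6 to 76 with 1 library left out. Of host sums, 10 passed as reported, 32 with DESeq2, 39 without a filter, 0 with at least 2 reads (293 unadjusted), 44 with at least 10, 24 with the replicate block, 20 with exonic circRNAs only and 0 to 84 with 1 library left out. Of ends, 54 passed as reported, 82 with SRPBM totals, 0 with at least 2 reads (809 unadjusted), 4 with the replicate block and 2 to 120 with 1 library left out. With SRPBM totals 31 circRNAs were called higher and 28 lower, against 32 and 19; 8 hosts and 6, against 8 and 2; and 42 ends and 40, against 37 and 17. Same-numbered libraries deviated with a correlation of -0.11 over circRNAs and -0.055 over host sums, and the labels do not pair them; a crossed replicate block, added after seeing the data, gave 0 calls of circRNAs (62 unadjusted).

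The Upf2 sum kept its direction in all 12 alternatives run and passed in 8, with adjusted p from 0.000310 to 0.178. It missed with SRPBM totals (0.0669), with at least 2 reads (0.164), without crush replicate 2 (0.178) and without its leading circRNA (0.152). The leading Upf2 circRNA passed in 6 of 9; it missed with at least 2 reads (adjusted p = 0.135), the replicate block (0.222) and the crossed block (0.0736), and its downstream end missed with the replicate block (0.0566). The Upf2 sum had adjusted p = 0.0114 with the replicate block. Cnot6l passed in 2 of 11, and Cnot2, Upf3b and Pan3 in none, all with log2 changes above 0. With at least 10 reads 6 of the 87 decay genes were tested and 2 passed, against 44 of the 188 hosts tested. With at least 5 reads required, the mean excess of listed circRNAs after crush was 2, against 5. The Pan3 circRNA at 9256476 to 9313769 turned to 0.046 with DESeq2 and lay between -0.25 and 0.11 with 1 library left out, that at 9309987 to 9313769 between -1.20 and 0.82, the Pan3 end at 9256476 between -0.12 and 0.36, and that at 9309987 between -0.42 and 1.35. With SRPBM totals the end at 9256476 was at -0.35. The cause was not tested. With 1 library left out, its lone partner is assumed to vary like the other group. The 20 untested circRNAs had too few reads for the filter.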
